A study of Mus musculus with 2 samples.

Results

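The nuclear genes of the mitochondrial respiratory chain and ATP synthase were compared between 1 liver array of WT mice and 1 of E4bp4-LKO mice. Members were the genes whose symbol begins with Ndufa, Ndufb, Ndufc, Ndufs, Ndufv, Uqcr, Cox4 to Cox8 or Atp5, or is Sdha, Sdhb, Sdhc or Sdhd, and that had a probe set annotated to that symbol alone. This gave 89 genes out of 22180, represented by 98 probe sets, among them 40 genes of complex I, 4 of complex II, 8 of complex III, 19 of complex IV and 18 of complex V. The study asked how liver gene expression under a high-fat diet depends on E4bp4 (gene symbol Nfil3), a transcriptional repressor of the basic leucine zipper family that binds the D-box element. Both groups were male mice that were given the high-fat diet from 2 months of age and for 12 weeks, so no array shows liver on regular chow. RNA from several animals was pooled for each genotype, and the labels do not say how many animals, at what hour they were collected, or which promoter or Cre line lies behind E4bp4-LKO. With 1 pooled array per genotype the differences have no replicate error and no test, and they compare these pools only.

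Oxidative phosphorylation couples the oxidation of NADH and succinate to ATP synthesis in the inner mitochondrial membrane. Complex I takes electrons from NADH and complex II from succinate; both hand them through coenzyme Q to complex III, and cytochrome c carries them to complex IV, which reduces oxygen. Complex V uses the proton gradient so formed to make ATP. Complexes I, III, IV and V combine subunits from nuclear genes with a few from mitochondrial DNA, while complex II is wholly nuclear-encoded. In liver this chain serves fatty acid oxidation, ketogenesis and gluconeogenesis.

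Nfil3 itself was at 5.94 on the WT array and 4.47 on the E4bp4-LKO array, in log2 intensity. The 10 hepatocyte markers lay between 9.56 (Asgr2) and 12.77 (Alb) on the WT array, and their summed linear signal, set mainly by the brightest, was 1.04 times as high on the E4bp4-LKO array. Their median difference was 0.10 on the log2 scale, with 6 of 10 positive and Cps1 (0.30) the highest. Markers of several other cell types were lower on that array. The summed signal of 15 skeletal muscle genes was 1.75 times as high on the WT array. That of 8 stellate cell genes was 1.51 times as high there, and of 6 endothelial genes 1.23 times. The 9 macrophage genes summed to 1979 (WT) and 1973 (E4bp4-LKO), but these sums hid opposite changes. On the E4bp4-LKO array 5 of the 9 were lower and 4 higher. Gpnmb (6.04 on the WT and 4.06 on the E4bp4-LKO array), Trem2 (5.57 and 4.89) and Cd68 (8.27 and 7.84) fell the most. Timd4 (6.59 and 6.94) and Vsig4 (8.45 and 8.74) rose the most. The sum of 7 adipocyte genes was 1.46 times as high on the WT array, but 1.04 times without Cidea (7.38 and 5.03), a lipid droplet gene. Adipoq, Plin1, Lep and Ucp1, which define adipocytes, were all below the floor used here on both arrays. Fabp4 (7.84 and 7.75) and Retn (4.67 and 4.55), from the same list, were above it on both. The part of these cells in the differences given here was not tested. In a whole-tissue sample, fewer cells of a type and less RNA per cell cannot be told apart.

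Promoter windows from RefSeq (GRCm38.p6), running from 250 bases before to 50 bases after the annotated start, were found for 72 of the 89 members, as 77 windows. They were searched on both strands for the letters of binding sites of factors known for this gene family and of E4BP4; none of these strings contains another. The stretch before the start is shown for 3 members: Cox7b, the sole member with a D-box string; Sdhd, with strings of 3 factors; and Ndufaf8, 1 of the 3 members past 1.5-fold. They are written 5′ to 3′ on the strand of the gene, and capitals mark the matched strings.

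Cox7b (chrX:106015450-106015699, plus strand): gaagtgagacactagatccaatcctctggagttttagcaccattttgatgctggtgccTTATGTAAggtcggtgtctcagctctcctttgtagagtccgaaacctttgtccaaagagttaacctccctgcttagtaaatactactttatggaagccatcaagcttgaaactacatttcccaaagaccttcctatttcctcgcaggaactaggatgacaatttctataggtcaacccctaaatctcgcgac

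Sdhd (chr9:50603850-50604099, minus strand): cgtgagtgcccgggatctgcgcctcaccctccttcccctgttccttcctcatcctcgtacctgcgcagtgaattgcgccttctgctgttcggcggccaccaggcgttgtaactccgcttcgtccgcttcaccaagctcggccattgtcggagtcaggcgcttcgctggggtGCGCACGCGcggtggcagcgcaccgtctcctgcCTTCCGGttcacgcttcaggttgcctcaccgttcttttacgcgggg

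Ndufaf8 (chr11:120098684-120098933, plus strand): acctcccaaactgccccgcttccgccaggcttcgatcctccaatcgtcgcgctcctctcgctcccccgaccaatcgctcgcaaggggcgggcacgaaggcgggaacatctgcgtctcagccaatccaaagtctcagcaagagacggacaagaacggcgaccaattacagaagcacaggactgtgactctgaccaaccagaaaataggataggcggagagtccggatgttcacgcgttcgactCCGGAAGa

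The D-box string TTATGTAA was present in 1 of the 77 member windows (1.30%), that of Cox7b, its first base at position -192 from the start, against 0.938% of all 32851 windows and 0.518% of the 11198 windows of genes above the floor. The palindrome TTACGTAA, the other form of an E4BP4 site that was searched, was in 0 of the 77 and in 0.119% of all windows. The NRF1 string GCGCANGCG was in 21 of 77 windows (27.3%), against 6.25% of all and 12.76% of those above the floor. The ETS string CCGGAAG, bound by the GABP factors, was in 19 (24.7%, against 8.86% and 16.7%), and the YY1 string AAGATGGC in 10 (13.0%, against 2.75% and 4.36%). The estrogen-related receptor string TCAAGGTCA was in 2 windows (2.60%, against 0.423% and 0.268%), those of Sdhd, 36 bases after the start, and Atp5g3. Genes with the NRF1 string had differences (E4bp4-LKO minus WT, here and throughout) from -0.11 (Sdha) to 0.67 (Ndufaf5), and those with the ETS string from -0.08 (Cox8a) to 0.61 (Ndufaf8). A matched string describes the letters of the window and is not evidence of binding.

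Most of the oxidative phosphorylation genes were slightly higher on the E4bp4-LKO array. Genes were called measurable above a floor of 4.20, the median over all genes of the mean log2 value, and 79 of the 89 members lay above it. Of these, 63 had a positive difference and 16 a negative one. The positive share was thus 79.7%, against 45.5% of the 11090 genes above the floor. The median difference of the members was 0.13 on the log2 scale (1.10-fold, SD between members 0.22), while that of all genes above the floor was -0.02. At least 1.2-fold higher were 22 members (27.8%), against 10.6% of genes above the floor, and at least 1.2-fold lower were 2 (2.53%), against 12.7%. The remaining 55 members differed by less than 1.2-fold in either direction. At 1.5-fold, 3 members were higher (3.80%, against 1.51%) and 0 lower (against 2.06%). Above a stricter floor of 6.28, the 75th percentile of genes, 1 member was at least 1.5-fold higher (against 1.51% of such genes) and 0 were at least 1.2-fold lower (against 9.22%). Across the 79 members the difference was nearly unrelated to the mean level (r = -0.08 over genes, which share the same 2 arrays).

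The size of a single member's difference is uncertain. For 299 genes with exactly 2 probe sets above the floor, the differences measured by these probe sets were a median of 0.17 apart, and 0.42 at the 90th percentile. For the 9 members with 2 probe sets the median gap was 0.21, here without a floor on the probe sets. Atp5e illustrates it, with 0.61 from its brighter probe set and 0.22 from its dimmer one, as do Cox7b (0.30 and 0.70) and Ndufa12 (0.01 and 0.34). Both probe sets of Atp5h (0.26 and 0.30) and of Cox5b (0.01 and 0.00462) gave nearly the same difference. The dimmer Cox5b probe set, however, was below the floor at 3.36 (WT) and 3.37 (E4bp4-LKO), where RMA values compress differences.

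The medians of the complexes were all above 0. Complex V had the highest median, 0.20 (15 genes above the floor, 13 positive, SD between members 0.16), and complex III followed at 0.16 (7 genes, 6 positive, SD 0.18). Complex I had a median of 0.13 (39 genes, 31 positive, SD 0.23), complex IV of 0.10 (14 genes, 10 positive, SD 0.26) and complex II of 0.08 (4 genes, 3 positive, SD 0.25). The gap between the highest and the lowest of these medians was 0.12, and no test of the order was possible. The order changed in several settings. Adding probe sets annotated to several genes moved complex III to 0.36, above complex V. With the floor at the 75th percentile, complex IV (0.14) lay above complex I (0.12). With no floor, and also with subunits only, complex IV (0.07) lay below complex II (0.08).

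**Figure D1:**
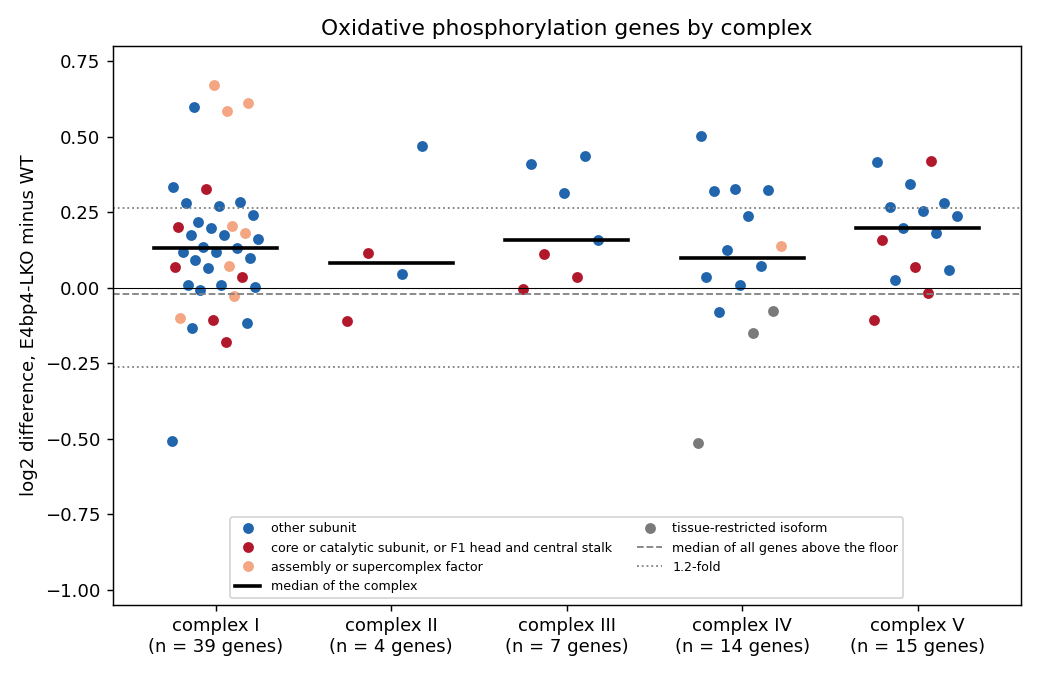
Log2 difference between the E4bp4-LKO and the WT array (vertical axis) for each of the 79 members above the floor, 1 point per gene, by complex (horizontal axis); bars are the medians of the complexes, the dashed line the median of all genes above the floor and dotted lines 1.2-fold. The 5 medians lie between 0.08 and 0.20, and the points below the lower dotted line are Ndufb11 in complex I and Cox6a2 in complex IV.

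Within the complexes, the core and catalytic subunits stood closer to 0 than the other subunits. The 16 core or catalytic members of complexes I, II and III and of the F1 part of complex V had a median difference of 0.05, and 10 were positive. Cytochrome c1 (Cyc1), a core subunit of complex III outside the symbol rule, was not among them. The other subunits of broad tissue distribution, including the nuclear subunits of complex IV, had a median of 0.18 over 51 genes above the floor. Of these, 46 were positive and 17 at least 1.2-fold higher, against 45.5% and 10.6% of all genes above the floor. The ranges overlapped, from -0.18 to 0.42 in the first set and from -0.51 to 0.60 in the second. This contrast was noticed in these values and was not tested.

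In complex I, the core subunits carry the flavin and the iron-sulfur clusters that pass electrons from NADH to coenzyme Q. Ndufv1, which holds the flavin and the NADH site, was at 8.53 on the WT array and 8.36 on the E4bp4-LKO array (-0.18). Ndufs1, the large iron-sulfur subunit, was at 8.45 and 8.35 (-0.11). Both were among the 5 lowest members of complex I. Ndufv2, the iron-sulfur partner of Ndufv1, was higher instead, at 8.91 (WT) and 9.23 (E4bp4-LKO), a difference of 0.32. Ndufs8, which carries iron-sulfur clusters on the way to the quinone site, differed by 0.20. Ndufs3 and Ndufs7, core subunits of the arm that leads to that site, differed by 0.07 and 0.04. The NADH-oxidising pair thus differed in opposite directions, and the median of the 6 core subunits was 0.05.

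The accessory subunits, which surround and stabilise the core, had a median of 0.13 over 25 genes above the floor, of which 21 were positive. Ndufa7, an accessory subunit of the matrix arm, was the highest of them, at 5.72 (WT) and 6.32 (E4bp4-LKO), which is 1.51-fold. Ndufa8, a membrane-arm subunit with 2 probe sets, was at 8.40 and 8.73 (0.33). At the other end, Ndufb11, a membrane-arm subunit encoded on the X chromosome, was at 5.47 on the WT array and 4.96 on the E4bp4-LKO array (-0.51). It stood well apart from the next accessory subunits, Ndufa13 (-0.13) and Ndufa10 (-0.12). The Ndufb family was otherwise above 0, from 0.01 (Ndufb10) to 0.28 (Ndufb8).

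Of the 4 largest positive differences in complex I, 3 belonged to assembly factors, which are not part of the finished enzyme. Ndufaf5, which hydroxylates an arginine of the core subunit Ndufs7 during assembly, was at 4.32 on the WT array and 4.99 on the E4bp4-LKO array, a difference of 0.67 (1.59-fold). Ndufaf8, a small protein that stabilises Ndufaf5, was at 6.24 and 6.85 (0.61, 1.53-fold). The difference of Ndufaf6, a factor of early assembly, was 0.58 (5.93 and 6.52), just under the 1.5-fold limit. These 3 were ranked 109, 147 and 168 from the top among the 11090 genes above the floor. The WT value of Ndufaf5 lay only just above the floor, where RMA values compress differences. The other factors were spread around 0, from -0.10 (Ndufaf3) to 0.20 (Ndufaf4), and the 8 factors together had a median of 0.19. Ndufaf3 and Ndufaf4, whose proteins bind each other, thus differed in opposite directions.

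**Figure D2:**
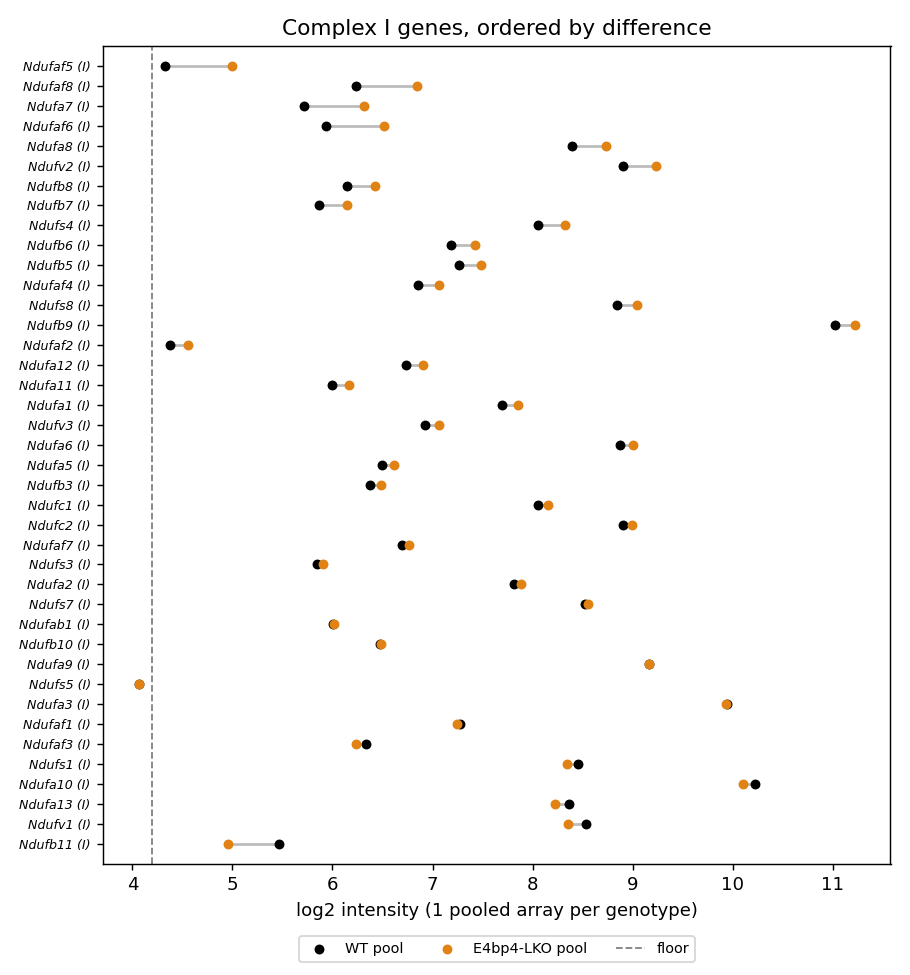
Log2 intensity (horizontal axis) on the WT (black) and E4bp4-LKO (orange) pooled arrays for the 40 complex I genes, ordered by their difference from the highest at the top to the lowest; the dashed line is the floor of 4.20. Ndufaf5, Ndufaf8, Ndufa7 and Ndufaf6 have the widest gaps to the right and Ndufb11 the widest to the left.

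Complex II, which is also the succinate dehydrogenase of the citric acid cycle, showed 1 clear gap and 3 small ones. Sdhd, 1 of the pair of heme-bearing membrane anchors, was at 9.46 on the WT array and 9.93 on the E4bp4-LKO array (0.47, 1.38-fold). Its partner anchor Sdhc was at 9.54 and 9.59 (0.05). Sdhb, the iron-sulfur subunit, differed by 0.11 (8.80 and 8.91) and Sdha, the flavin subunit that oxidises succinate, by -0.11 (10.86 and 10.75). The differences of the subunits of this complex thus spanned 0.

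In complex III, the core subunits differed little and the small accessory subunits were all higher on the E4bp4-LKO array. Uqcrc1 and Uqcrc2, the core proteins, were at 10.07 on both arrays (-0.00498) and at 10.00 and 10.03 (0.03). Uqcrfs1, the Rieske iron-sulfur protein that takes electrons from coenzyme Q, was at 6.13 (WT) and 6.24 (E4bp4-LKO), a difference of 0.11. Among the accessory subunits, Uqcrq was at 5.38 and 5.81 (0.44, 1.35-fold). Uqcrh, the hinge protein of the cytochrome c docking site, was at 7.40 and 7.81 (0.41), and Uqcr11 at 6.63 and 6.94 (0.31). Uqcrb, which contributes to the quinone site, was brighter, at 11.07 and 11.22 (0.16). The 4 accessory subunits had a median of 0.36 against 0.03 for the 3 core subunits that met the symbol rule. Cytochrome c1 (Cyc1, 0.12), also a core subunit, lay outside that rule and was not counted. The pseudogene Uqcrh-ps1 was below the floor, at 2.08 and 2.35.

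The catalytic centre of complex IV is encoded in mitochondrial DNA, and its nuclear genes encode the surrounding subunits, several of them as tissue-specific isoforms. The 10 genes of subunits found in most tissues had a median of 0.18, and 9 were positive. Cox7b was the highest as the mean of its 2 probe sets, at 6.41 (WT) and 6.92 (E4bp4-LKO), a difference of 0.50. Its dimmer probe set (0.70) had a mean of 4.19, just below the floor. The brighter one gave 0.30, which is below the next genes named here. These were Cox6b1 and Ndufa4. Cox6b1, on the intermembrane-space side, was at 9.14 and 9.47 (0.33). Ndufa4, named for complex I but a subunit of complex IV, was at 10.39 and 10.72 (0.32). Cox7c, near the floor at 4.34 and 4.58, differed by 0.24. Cox5a and Cox5b, which sit on the matrix side, differed by 0.03 and 0.01.

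Where a subunit has several isoforms, their differences did not follow a single pattern. Cox6a1, the form of liver and most tissues, was at 11.67 and 11.74 (0.07), whereas Cox6a2, the heart and skeletal muscle form, was at 4.95 on the WT array and 4.44 on the E4bp4-LKO array (-0.52). Cox7a2, the liver form, was at 8.29 and 8.61 (0.32), and Cox7a1, the muscle form, at 4.60 and 4.52 (-0.08); Cox7a2l, a factor that joins complexes III and IV into supercomplexes, was at 6.27 and 6.41 (0.14). Cox8a was at 10.29 and 10.21 (-0.08), and Cox8b, the muscle form, was below the floor at 4.19 and 3.98 (-0.20). Cox4i1 was at 8.90 and 9.02 (0.13), while Cox4i2, a form of lung and hypoxic cells, was below the floor on both arrays (0.02). Cox6b2, Cox7b2 and Cox8c, testis forms, lay between 2.47 and 3.81 on the arrays, below the floor. Ndufa4l2, a hypoxia-induced relative of Ndufa4, was near the floor at 4.44 and 4.29 (-0.15).

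All 3 muscle isoforms had negative differences, a sign shared by 54.5% of the genes above the floor. Cox6a2 (-0.52) alone among them was past 1.2-fold, Cox7a1 differed by -0.08, and Cox8b (-0.20) did not pass the floor. The sign was not particular to muscle forms, since Ndufa4l2 (-0.15) and the testis form Cox8c (-0.15, below the floor) were negative too. Cox4i2 (0.02), Cox6b2 (0.09) and Cox7b2 (0.24), also below the floor, were positive. A negative difference was found for 14 of the 15 skeletal muscle markers. Among the 13 above the floor, 12 were negative and 8 at least 1.5-fold lower, against 54.5% and 2.06% of all genes above it. These 8 included Myh2 (6.24 and 4.41), Myh4 (5.51 and 4.11), Myh1 (4.99 and 3.82) and Atp2a1 (6.92 and 5.45). All 8 exceeded the floor of 4.20 in the WT pool. In the E4bp4-LKO pool Myh4 and Myh1 did not, and they were counted through the mean of both arrays. The rest of the 8 were Acta1 (7.71 and 6.80), Tnnt3 (7.26 and 6.40), Mb (5.62 and 4.88) and Pygm (6.03 and 5.35). The other markers above the floor differed by -0.36 (Tnnc2) to 0.01 (Casq1), and Ckm and Myoz1 did not pass it. The part of muscle RNA in the values of Cox6a2, Cox7a1 and Cox8b was not tested. Of the 10 complex IV genes found in most tissues, Cox8a alone was negative.

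In complex V, the catalytic F1 subunits were bright and close to 0, and the stalk and small membrane subunits were higher on the E4bp4-LKO array. Atp5b, the catalytic beta subunit, was at 11.47 and 11.45 (-0.02), and Atp5a1, the alpha subunit, at 11.01 and 10.91 (-0.11). They were the only members of the complex above the floor with negative differences. Of the central stalk, Atp5c1 (gamma) differed by 0.16 and Atp5d (delta) by 0.07. Atp5e, the small epsilon subunit, was at 6.53 and 6.95 (0.42), the highest of the complex, with the disagreement between its probe sets given above.

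The peripheral stalk holds the F1 head still while the rotor turns, and its 4 subunits were all higher: Atp5pb by 0.18, Atp5o by 0.20, Atp5h by 0.28 and Atp5j by 0.34 on the log2 scale. Atp5j, coupling factor 6, was at 6.83 (WT) and 7.17 (E4bp4-LKO), and Atp5h at 7.73 and 8.01. The small membrane subunits were higher too, with a median of 0.26 over 4 genes. Atp5md, which supports the dimer form of the enzyme, was at 10.57 and 10.98 (0.42), and Atp5mpl at 8.80 and 9.06 (0.27). In the c-ring, the rotor that protons turn, Atp5g2 was at 9.63 and 9.65 (0.02) and Atp5g3 at 8.53 and 8.59 (0.06). Atp5g1, which encodes the same mature protein, was below the floor at 3.85 and 4.16. The c-ring genes above the floor thus lay close to 0 beside the stalk genes.

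**Figure D3:**
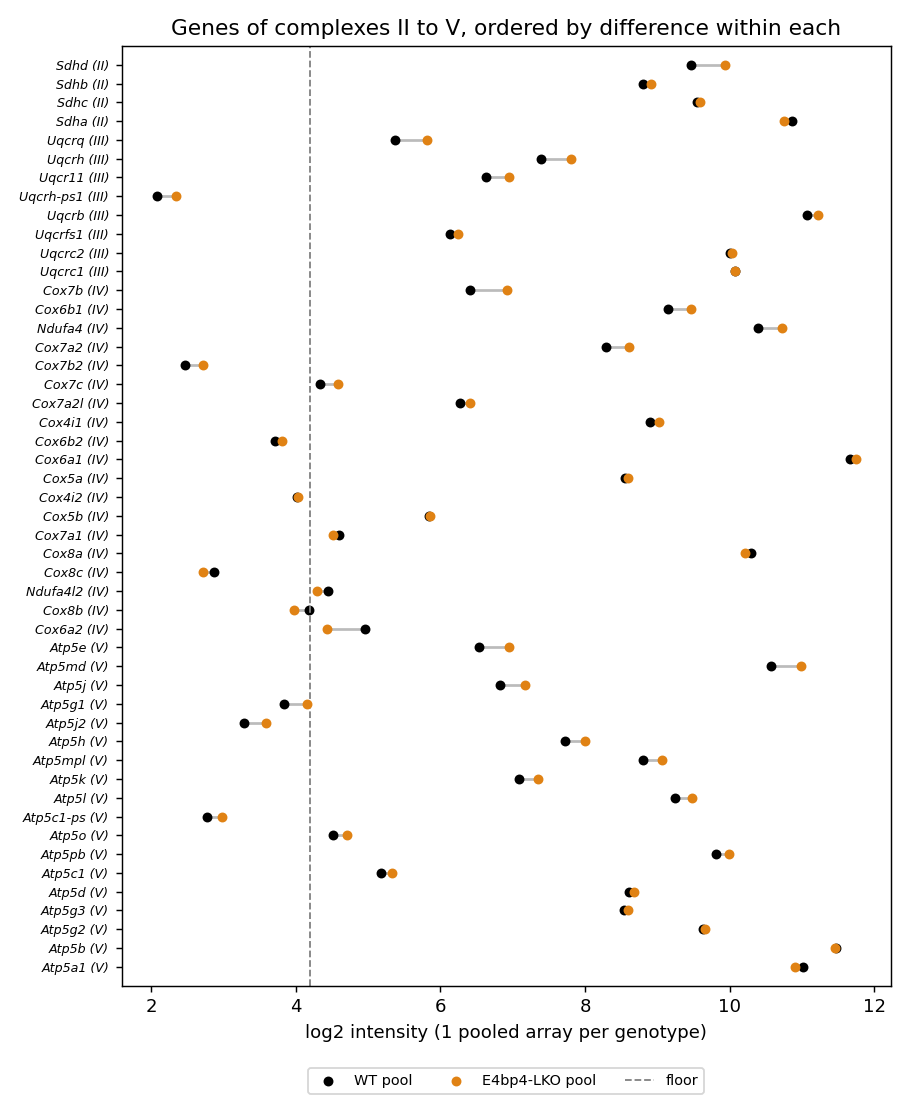
Log2 intensity (horizontal axis) on the WT (black) and E4bp4-LKO (orange) pooled arrays for the 49 genes of complexes II to V, grouped by complex (Roman numeral) and ordered by difference within each; the dashed line is the floor of 4.20. Sdhd, Uqcrq, Uqcrh, Cox7b, Atp5e and Atp5md lie to the right of their WT values, and Cox6a2 to the left.

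Of the 10 members that did not pass the floor, 7 had a positive difference, and the range was -0.20 (Cox8b) to 0.31 (Atp5g1). Besides the isoforms and pseudogenes given above and Atp5c1-ps (2.77 and 2.99), they were Ndufs5 (4.07 on both arrays) and Atp5j2 (3.28 and 3.59), both genes of constitutive subunits. A further 10 probe sets matched the rule by at least 1 symbol but carried several, and were left out. All 10 had positive differences. Above the floor were 8, with a median of 0.29, and 4 of these were at least 1.2-fold higher, against 10.6% of all genes. Among the 8 were Ndufb4 with its copies (6.46 and 6.94), Uqcr10 (6.87 and 7.30), Ndufs5 with its pseudogene (6.99 and 7.35) and the brighter of the pair for Cox6c (10.46 and 10.65). Below the floor, a probe set shared by Ndufs1 and Ino80dos (3.58 and 3.92) was higher on the E4bp4-LKO array, unlike Ndufs1 alone (-0.11). The signal of the probe sets with several symbols cannot be assigned to 1 gene.

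The other genes of the pathway did not share one direction. Assembly factors outside the symbol rule had the median nearest to that of the members, 0.16. Of 36 above the floor, 27 were positive, against 45.5% of all genes above it. At least 1.2-fold higher were 15, against 10.6%. The highest was Coa6, a copper-handling factor of complex IV, at 7.06 (WT) and 7.73 (E4bp4-LKO), a difference of 0.67. The lowest was Cox19, another copper-related factor of complex IV, at 6.75 and 6.37 (-0.38). Cytochrome c (Cycs, 0.07), cytochrome c1 (Cyc1, 0.12) and the ATP synthase inhibitor Atpif1 (0.08) were all slightly positive. The 12 coenzyme Q genes had a median of 0.04, from Coq8b (-0.14) to Coq8a (0.36), both kinase-like proteins of that synthesis.

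Of the 13 subunits encoded in mitochondrial DNA, 10 were measured, and their median difference was 0.00356. Apart from ND6, they lay between 11.84 and 12.70 on the WT array, at the top of the scale, and differed by -0.03 (ND1) to 0.05 (COX1). Whether signals this bright were saturated was not tested. ND6, the one subunit transcribed from the other strand, was dimmer and differed by 0.52 (8.28 and 8.81).

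The citric acid cycle, which feeds NADH and succinate into the chain, had a median below 0. Of 12 genes, 9 were negative, against 54.5% of all genes above the floor, and the median was -0.12. At least 1.2-fold lower was 1 of the 12, Ogdh, against 12.7% of all genes. Ogdh, the 2-oxoglutarate dehydrogenase, was the lowest at 9.69 (WT) and 9.22 (E4bp4-LKO), a difference of -0.46, and Fh1, fumarase, the highest at 0.14. Regulators of mitochondrial biogenesis had a median of 0.02 over 14 genes. Ppargc1b, a coactivator of respiratory genes, was the lowest (-0.37) and Tfb1m, a methyltransferase of mitochondrial ribosomal RNA, the highest (0.35). The regulators Ppargc1a (-0.10), Nrf1 (-0.10), Gabpa (0.05), Esrra (0.01) and Tfam (0.15) lay between them.

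**Figure D4:**
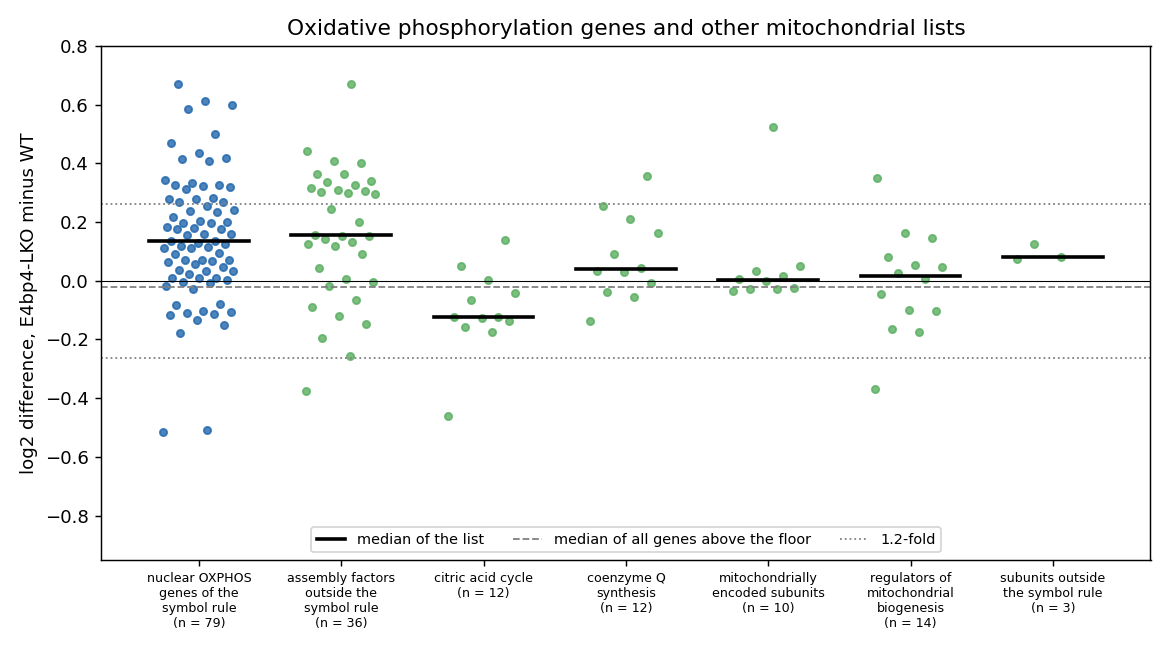
Log2 difference between the E4bp4-LKO and the WT array (vertical axis) for the members and for 6 other mitochondrial lists (horizontal axis), 1 point per gene above the floor; bars are medians, the dashed line the median of all genes above the floor and dotted lines 1.2-fold. The medians are 0.13 for the members and 0.16 for the other assembly factors, and -0.12 for the citric acid cycle.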

How the data were processed

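Liver RNA was measured on 2 arrays, 1 per genotype, each from pooled mice. Per the labels' protocols, RNA was extracted with TRIzol and chloroform, and 400 ng was labelled with the WT Plus kit. The deposited values are log2 intensities; the submitters' processing notes name RMA, and R 3.4.0. RMA equalises the distributions of both arrays and compresses dim differences, so a shift of most genes would not be seen. The arrays' medians were 3.74 (WT) and 3.75 (E4bp4-LKO).

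Of 41345 probe sets, 23521 carried 1 gene symbol in the platform annotation, 1814 several and 16010 none. All 89 members matched RefSeq (GRCm38.p6) by Entrez identifier, with 0 symbols changed. Probe sets were averaged per gene with pandas 2.3.3. Ndufa4 and its relative were counted in complex IV, and a pseudogene in the complex of its symbol. No test was made. The text names all genes of complexes II and III, the 5 highest and 5 lowest of the others, those past 1.5-fold, isoforms, complex I core subunits and the extremes of each pathway list; further genes were chosen after their values were seen. The members and lists were chosen with earlier results of these data known. The calculation of the medians was checked on simulated data with planted differences. That check does not measure the noise of these arrays.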

Additional observations from a re-analysis of the deposited data

How the results depend on the processing

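Floors, probe set choice, array scaling, the intensity trend, membership and grouping were varied 1 at a time. Of 132 recomputed medians and counts, 126 stayed within 0.05 (medians) or 1.5 times (counts) of the reported value, and 0 changed sign. The complex III median was 0.21 with no floor and 0.36 with the probe sets of several symbols added, a setting chosen after seeing the data. Among the probe sets of several symbols was 1 shared by Uqcrb and Gm10767. Its mean was below the floor, with 3.65 on the WT and 4.69 on the E4bp4-LKO array (1.04). With the floor at the 75th percentile (6.28), 0 members were at least 1.2-fold lower and 1 at least 1.5-fold higher. With subunits only, 1 was at least 1.5-fold higher, and without tissue-restricted isoforms and pseudogenes, also chosen later, 1 was at least 1.2-fold lower. Of 165 values for the 55 members named by the rule, 5 moved by 0.05 or more, all with the brightest probe set: Atp5d (0.15), Atp5e (0.61), Atp5g2 (-0.03), Cox7b (0.30) and Ndufa8 (0.23). Ndufa12, named outside the rule, was at 0.01 with its brighter probe set against 0.18 as the mean. Centring the arrays moved the median of all genes above the floor by 0.01. No paired analysis was possible because each genotype has 1 array. Detection calls were not used here, so signal over background limits the dim members to a judgement from level alone.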

Other observations

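Other families of nuclear genes with a mitochondrial or ribosomal role were examined after the members' values had been seen. Of 66 mitochondrial ribosomal protein genes above the floor, which translate the subunits encoded in mitochondrial DNA, 55 had a positive difference, and the median was 0.12. Of 49 cytosolic ribosomal protein genes above the floor, 44 were positive, with a median of 0.22. At least 1.5-fold higher were 5 of them, against 1.51% of all genes above the floor. The positive share among the oxidative phosphorylation genes (79.7%) was thus accompanied by shares of 83.3% and 89.8% in these families, against 45.5% of all genes above the floor.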
